A study of Homo sapiens with 6 samples.

Results

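Broad stretches of open chromatin present at each of 3 times of a FOXA1 degradation series were described in 22Rv1, an established line of human prostate cancer cells, from ATAC-seq, in which a transposase cuts and tags accessible DNA. The libraries are labelled FOXA1_dTAG and 0h, 1h or 24h, and each time has 2 of the 6 libraries. FOXA1 belongs to the forkhead family and is a pioneer transcription factor, and the dTAG system fuses a protein to a tag that lets a small molecule send it to degradation. All 3 groups carry the tag, so 0h is the reference. The labels give no degrader and no dose, do not say whether the line is 1 clone, and do not say whether replicates are separate cultures, so the p-values below measure a spread that may be technical. No FOXA1 level was analysed here. A region counted as broad if, after overlapping peaks of the 6 lists were merged on the 22 autosomes and X, each list held a single peak of at least 1000 bp in it. This rule kept 4578 of 167726 merged regions. The members were chosen by the measured peak widths, so widths are given as a description and were not tested.

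Most accessible sites in a cell are narrow, about the span cleared by a displaced nucleosome. Wide stretches of open chromatin are known at active promoters, above all those with CpG islands, and at dense enhancer clusters. A pioneer factor such as FOXA1 can bind its motif on nucleosomal DNA, and luminal prostate enhancers are among its best known targets. Neither genes nor sequences are assigned to the regions here, because no annotation or sequence of hg19, the build of the peak lists, was used.

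The lists held 101755 to 125396 peaks. Relative depth, worked out from the commonest background as described under processing, was 7.35 and 7.06 tags per kb in the 24h libraries, below the 8.14 to 10.5 of the 4 earlier ones. The shortest peak, which tracks the fragment length used by the peak caller, ranged from 111 bp in 0h replicate 2 to 172 bp in 1h replicate 1. The part of depth and fragment length in the results below was not tested.

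Of the merged regions, 72695 held a peak in all 6 lists and 63045 held exactly 1 peak in each, and the broad regions were read against the other 58467 of this last set. Of the 63045 regions, 54676 reached 1000 bp in no library and 4578 in all 6, while 1163, 692, 614, 601 and 721 did so in 1, 2, 3, 4 and 5 libraries. A further 926 regions held a peak of at least 1000 bp in each list, but several peaks in some list, and were left out by the rule. Of the 721 regions broad in 5 libraries, 277 fell short in 24h replicate 2, 205 in 24h replicate 1, 166 in 0h replicate 2, and 19 to 30 in each of the other 3. The limit was therefore missed most often in the 24h libraries and in the 0h library with the shortest fragment. Regions of at least 1000 bp in both 0h libraries and in neither 24h library numbered 347, against 27 for the reverse.

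Just inside the limit lay chr1:24741620-24742875, with widths of 1203 and 1000 bp at 0h, then 1207 and 1115 bp at 1h, then 1035 and 1074 bp at 24h. Just outside lay chr1:204485000-204486185, at 999 and 1072 bp at 0h, then 1141 and 1143 bp at 1h, then 1139 and 1091 bp at 24h. A single base in 1 library thus separated such neighbours.

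The median width of the broad regions was 1345 and 1276 bp at 0h, then 1339 and 1326 bp at 1h, then 1262 and 1251 bp at 24h. The 24h values were the lowest, and 0h replicate 2 lay closer to them than to its own replicate. The time means were 1311 ± 48.8, 1333 ± 9.19 and 1256 ± 7.42 bp (SD, n = 2). The median width percentile was 96.3 at each time, so the lower widths at 24h were not lower in rank. The other regions had medians of 378 to 484 bp, lowest in 0h replicate 2. Broad regions made up 3.65% to 4.50% of the peaks of a list, yet held 41.3% (1h replicate 1) to 61.7% (24h replicate 2) of its peaks of 1000 bp or more, and covered 5.96 to 6.36 Mb.

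**Figure D1:**
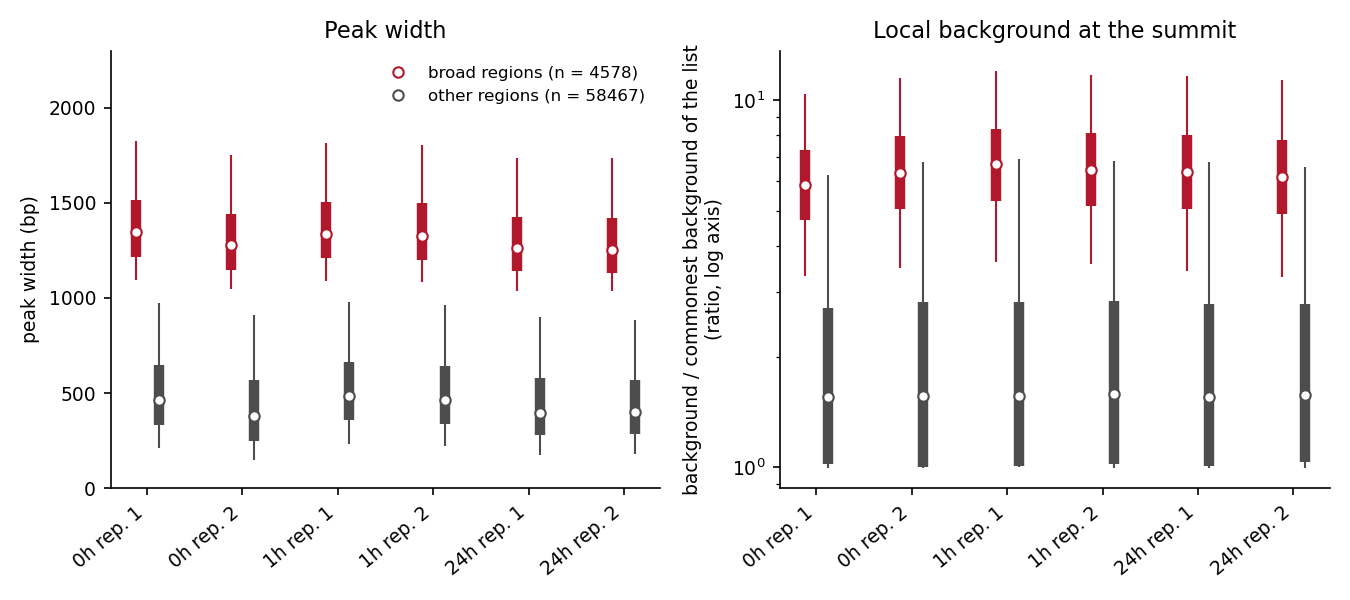
Peak width in bp (left, linear axis from 0) and local background at the summit divided by the commonest background of the list (right, log axis) in the 6 libraries. Red is the 4578 broad regions and grey the 58467 other regions with 1 peak in each list; circles are medians, thick bars the quartiles, thin bars the 5th to 95th percentile. Broad regions lie on a background of 5.86 to 6.68 times the commonest value, against 1.55 to 1.59 times for the other regions.

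Broad regions were among the most heavily cut sites, but their fold over local background stood out much less. Pileup, the number of overlapping fragments at the summit, had a median of 100 and 73 at 0h, then 98 and 96 at 1h, then 80 and 72 at 24h. The other regions had medians of 21 to 29. Ranked within each library over the 63045 regions, broad regions had a median pileup percentile of 92.5 ± 0.105 at 0h, 92.8 ± 0.176 at 1h and 92.5 ± 0.0617 at 24h (SD, n = 2), and 62.5% of them fell into the top decile of mean pileup. The deposited fold divides that pileup by the local background, with an assumed pseudocount of 1 added to each. Its median was 9.38 and 10.5 at 0h, then 9.46 and 9.59 at 1h, then 10.0 and 10.1 at 24h. The other regions had medians of 7.60 to 8.77. This order depended on the pseudocount. The median percentile of the deposited fold was 63.7 to 67.6 in broad regions, against 47.5 to 48.1 in the others. Without the pseudocount it was 39.8 to 46.5 in broad regions, below the 49.9 to 52.0 of the others. The background under broad regions was itself 5.86 and 6.33 times the commonest background of the list at 0h, then 6.68 and 6.46 times at 1h, then 6.37 and 6.18 times at 24h. Fold, pileup and width come from the same peaks, so these contrasts are descriptions.

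Fold and width were related in opposite directions on the 2 sides of the limit. Across the other regions, mean width and mean fold percentile had a Spearman rho of 0.59, while across the broad regions rho was −0.40. These are correlations across regions of the same libraries, and regions are not independent replicates. Over all 63045 regions, the median fold percentile was 74.96 for a mean width of 700 to 1000 bp and 74.9 for 1000 to 1200 bp, then 67.2 for 1200 to 1500 bp, 53.0 for 1500 to 2000 bp and 31.9 for the 60 regions of 2000 bp or more. The pileup percentile did not turn: it was 79.8, 90.3, 92.6, 93.7 and 94.5 over the same classes. The background was higher in wider classes, from a median of 5.11 to 5.74 times the commonest value in broad regions of 1000 to 1200 bp to 9.74 to 11.5 times in those of 2000 bp or more.

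**Figure D2:**
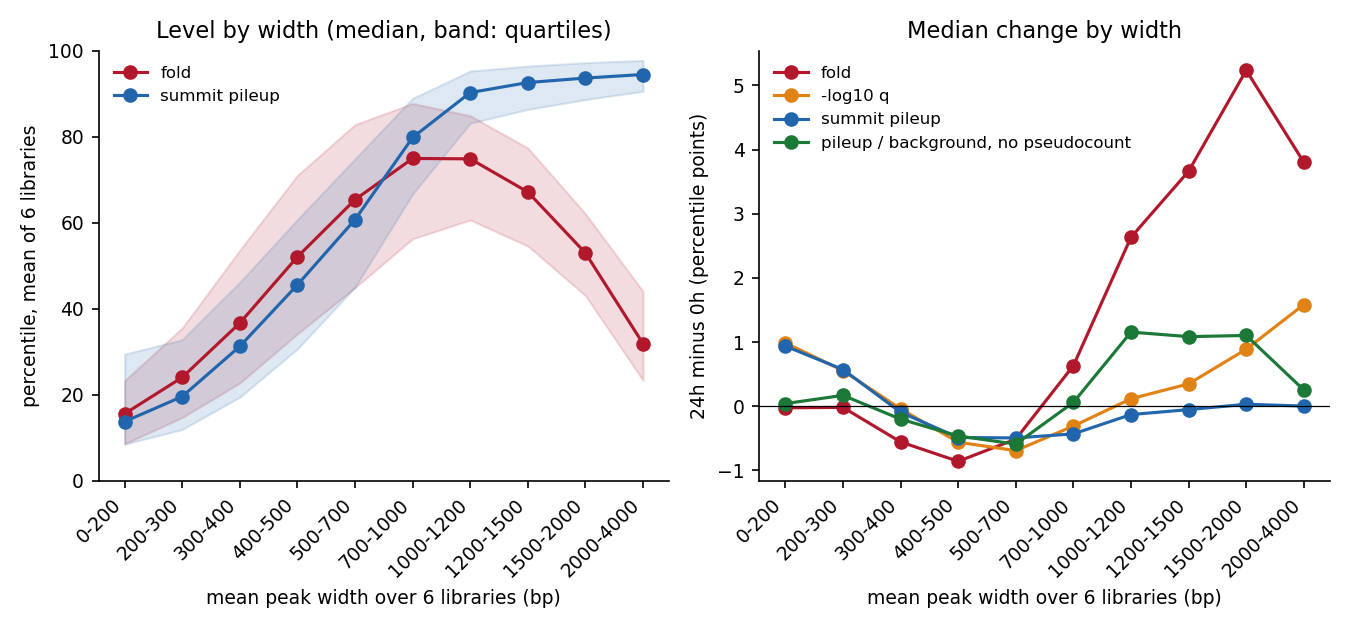
Left, the median within-library percentile of fold (red) and of summit pileup (blue), averaged over 6 libraries, by mean peak width in bp; bands are quartiles over regions. Right, the median change in percentile points from 0h to 24h by the same width classes for 4 values of the same peaks. The fold percentile falls from 74.9 at 1000 to 1200 bp to 31.9 at 2000 bp or more while the pileup percentile stays above 90; in the classes of 1000 bp or more the 24h change is larger in fold than in the other 3 values.

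The widest broad regions showed this pattern most fully. The widest, chr6:58776261-58779507, held peaks of 3231 and 3229 bp at 0h, then 3227 and 3194 bp at 1h, then 3247 and 3219 bp at 24h. Its fold was 3.76 and 3.68, then 3.70 and 3.74, then 3.55 and 3.66, percentiles of only 2.0 to 3.5. Its pileup percentile was 98.7 to 99.7, on a background of 25.3 to 33.7 times the commonest value. The next, chr2:10151293-10154405, combined widths of 2987 to 3108 bp with folds of 3.43 to 3.97 and pileups of 120 to 176. In chr2:222436400-222438979, also among the 10 widest, widths of 2414 to 2544 bp went with folds of 6.02 to 8.94 and a background of 8.0 to 9.6 times. High width therefore did not fix the fold.

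Extremes of fold showed the same contrast. The broad region of highest mean fold percentile, chr10:62537789-62539024, had folds of 16.8 and 18.7 at 0h, then 15.8 and 17.4 at 1h, then 18.6 and 20.2 at 24h, with a background of 3.8 to 4.6 times. Its summit lay 311 to 338 bp from the region's start in all 6 libraries. The lowest, chr5:43041867-43043552, had folds of 3.15 and 3.69, then 3.06 and 3.27, then 3.23 and 3.20, on a background of 12.96 to 15.4 times. Also among the 5 lowest, chr1:569121-570287 had pileups of 198 to 278, the 100.0th percentile after rounding in each library, but folds of only 3.45 to 3.80. Its background was 44.7 and 55.8 times the commonest value at 0h, then 54.4 and 51.8 times at 1h, then 63.3 and 61.4 times at 24h. Peaks were not filtered here against a list of places prone to mapping artefacts. Whether the regions of extreme width, pileup or background named above are such places was not tested.

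The edges of broad regions differed between libraries by somewhat fewer bases than those of other regions. The stretch covered by all 6 peaks made up a median of 84.3% of the merged region, against 51.4% for the other regions, and in 4194 of the 4578 broad regions this shared stretch alone reached 1000 bp. A given difference at the edges takes a smaller share of a longer peak, so these shares follow in part from the rule. Across libraries the start of the peak ranged over a median of 99 bp and the end over 101 bp, against 125 and 126 bp in the other regions. The summit was less fixed. All 6 summits lay within 100 bp of each other in 45.3% of broad regions and in 48.8% of the others, but they spread over at least 300 bp in 19.1% against 5.43%. Replicates of 1 time already differed by at least 300 bp in 7.30%, 5.02% and 7.08% of broad regions at 0h, 1h and 24h, against 0.785% to 1.24% of the others. The summit lay in the central 50% of the peak in 78.4% of broad regions against 89.5%. The rule makes these peaks wider, so the summit shares are not a comparison of like with like.

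The first question over time was whether any broad region changed its fold rank by 1h or 24h. Each library's deposited folds were ranked over the 63045 regions, converted to normal scores and compared with limma, with Benjamini-Hochberg adjustment over all of them and a threshold of 0.05. No broad region passed at 24h against 0h, where 5.06% of all regions tested were called (2.44% higher, 2.62% lower). That share rests on both libraries of each time: of all regions, 1540 were higher and 1651 lower, but leaving out 0h replicate 1 gave 352 and 285, and leaving out 0h replicate 2 gave 115 and 307. Fits that lacked 24h replicate 1 called 241 and 513, those that lacked 24h replicate 2 called 137 and 295, and 0 broad regions were called in any of these. At an unadjusted p under 0.05, limma gave 32 broad regions higher and 12 lower at 24h, against 10.1% and 9.78% of all regions. No broad region passed at 1h against 0h or at 24h against 1h, where 0% of all regions were called; unadjusted, 13 were higher and 10 lower in the former (6.13% and 6.56% of all regions) and 30 higher and 5 lower in the latter (5.64% and 5.74%). Missing the threshold does not show that a region did not change. The 3 comparisons share libraries.

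This test made few calls at this height in the other regions too. In the top decile of mean pileup, 0 of 2863 broad regions and 4 of 3184 others (0.126%) were called at 24h. Without regard to height, the changes were smaller in broad regions. The median size of the 24h change, in normal-score units, was 0.154 in broad regions against 0.336 in the others, and the 99th percentile was 0.579 against 2.00. Where most broad regions lie, much of this gap went with height. In the top decile of mean pileup the median size was 0.161 in broad regions and 0.183 in the others. In decile 9 it was 0.137 against 0.184, and in decile 7, with few broad regions, 0.151 against 0.303. The residual SD between replicates, again over all heights, was 0.143 against 0.298. Limma's common prior pulls a small spread up towards that of all regions.

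A prior that follows the mean pileup, added after the data were seen, changed the count. With it, limma called 71 broad regions higher and 1 lower at 24h against 0h, where 4.28% and 3.82% of all regions were called. In the top decile of mean pileup, 66 broad regions (2.31%, each higher) and 4.71% of the others were called. The shares lay further apart below it. In decile 9, 0.408% of broad regions and 3.85% of the others were called, and in decile 8 0.287% and 6.28%. Only 7 of the 71 were also called higher when pileup was ranked in place of fold, and in 7 of the 71 the pileup change was negative. At 1h against 0h this prior called 1 broad region higher and 0 lower (0.631% and 1.13% of all regions), and at 24h against 1h it called 0 in either direction, with 0.0634% and 0.0555% of all regions. With fold ranked without the pseudocount of 1 that the peak caller adds, the same prior called 4 higher and 1 lower at 24h against 0h (2.48% and 2.2% of all regions), 1 higher and 0 lower at 1h against 0h (0.301% and 0.444%), and 0 at 24h against 1h (0.0206% and 0.00634%).

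The region called lower was chr8:636754-638527. Its pileup was 114 and 62 at 0h, then 52 and 54 at 1h, then 38 and 30 at 24h. Its fold was 10.7 and 9.47, then 6.54 and 6.91, then 6.77 and 6.22, so that both 0h libraries lay above all 4 later ones. The width stayed between 1610 and 1758 bp. Its fold percentile was 75.6 and 55.5 at 0h and 27.8 to 36.0 in the later libraries. The normal-score change of fold at 24h was −0.89 (SE 0.28), with an adjusted p of 0.11 from limma and of 0.018 with the prior along the pileup. At 1h it was −0.81 (SE 0.28), adjusted p = 0.27 from limma.

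On the other side, chr19:8454571-8455950 had folds of 7.13 and 7.38 at 0h, then 9.26 and 9.84 at 1h, then 10.1 and 11.4 at 24h, and its fold percentile, 39.4 and 35.1, then 64.9 and 66.9, then 69.1 and 77.8, did not overlap between times. Its pileup percentile was between 98.3 and 99.7 throughout, while its background was 12.1 and 12.9 times the commonest value at 0h but 9.8 and 9.7 times at 24h. The change at 24h was 0.96 (SE 0.24), adjusted p = 0.063 from limma and 3.93e-05 with the prior along the pileup. Region chr3:12881947-12883583 had folds of 6.79 and 7.57 at 0h, then 7.53 and 8.81 at 1h, then 10.2 and 11.2 at 24h. There the pileup percentile was higher too, at 88.4 and 89.5 against 77.6 and 77.4 at 0h. Its fold percentile was 35.1 and 36.5, then 47.1 and 56.5, then 69.8 and 75.9, again without overlap. Its change at 24h was 0.98 (SE 0.24), adjusted p = 0.059 from limma and 0.0041 with the prior along the pileup.

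The smallest p of the other comparisons are given as values only, since none passed with limma. For 1h against 0h it belonged to chr5:101118114-101119682, with fold percentiles of 50.5 and 41.7 at 0h, then 84.7 and 76.7 at 1h, then 56.4 and 77.7 at 24h (change at 1h 0.97, SE 0.29, adjusted p = 0.21). Its widths were 1569 and 1489 bp at 0h and 1169 to 1247 bp later. For 24h against 1h it belonged, on the lower side, to chr8:121456551-121457866, at percentiles of 79.3 and 81.2 against 57.2 and 48.8 (change −0.78, SE 0.25, adjusted p = 0.32). On the higher side it was chr15:69886441-69888271, at 23.5 and 20.3 against 44.7 and 50.6 (change 0.72, SE 0.24, adjusted p = 0.34). The summit of that region lay 687 and 743 bp from its start at 0h, but 1504 to 1615 bp in the 4 later libraries.

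Ranking the pileup instead of the fold, with the same prior and likewise added after the data were seen, gave 32 broad regions higher and 36 lower at 24h against 0h (7.67% and 6.16% of all regions), 10 and 9 at 1h against 0h (1.79% and 2.26%), and 0 and 3 at 24h against 1h (0.581% and 0.961%). Without that prior, ranking the pileup gave 3 higher and 3 lower at 24h against 0h (3.45% and 3.24% of all regions). The regions that follow have the lowest adjusted p in each direction and were chosen after their values were seen. After chr8:636754-638527, the lowest was chr4:89435646-89437089, with pileups of 73 and 53 at 0h, then 42 and 33 at 1h, then 23 and 25 at 24h. Its pileup percentile went from 83.5 and 82.8 to 48.5 and 55.5, a normal-score change of −0.91 (adjusted p = 4.29e-05 from limma with the prior along the pileup), while its fold of 9.91 and 11.3 at 0h and 7.96 and 8.22 at 24h gave an adjusted p of 0.27 with that prior. Region chr1:180583875-180585392 had pileups of 74 and 57, then 49 and 41, then 30 and 26, and stayed at least 1095 bp wide. In both, the pileup percentile of each later library lay below that of both 0h libraries.

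Among those called higher by pileup, chr1:222012852-222014412 had values of 92 and 70 at 0h, then 106 and 115 at 1h, then 111 and 98 at 24h, although depth was lowest at 24h. Its percentile was 90.3 and 91.3 at 0h, then 94.7 and 96.6 at 1h, then 98.6 and 98.4 at 24h, without overlap (change 0.84, adjusted p = 6.17e-05 from limma with the prior along the pileup). Region chr2:105866222-105867498 had pileup percentiles of 81.7 and 78.8 at 0h, then 88.7 and 90.8 at 1h, then 93.2 and 94.4 at 24h, also without overlap (change 0.69, adjusted p = 0.00018 with the same prior in limma).

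As a group, the broad regions stood higher in fold rank at 24h, as did the other regions of highest pileup. Their median fold percentile was 63.7 and 64.5 at 0h, then 66.4 and 64.4 at 1h, and 67.6 in both 24h libraries. The 24h libraries lay above all 4 earlier ones, and the time means were 64.1 ± 0.552, 65.4 ± 1.46 and 67.6 ± 0.0477 (SD, n = 2). The median pileup percentile was 92.5, 92.8 and 92.5 at the 3 times. Pileup over background without the pseudocount gave 43.2 ± 4.77, 45.2 ± 1.83 and 44.6 ± 0.896, within the spread of the 0h replicates. The median percentile of −log10 q was 89.1 ± 0.259, 90.1 ± 0.308 and 89.6 ± 0.342, and both 24h libraries (89.9 and 89.4) lay above both 0h libraries (89.3 and 88.95). By width, the median change of the broad regions in fold percentile from 0h to 24h was 2.91 points for 1000 to 1200 bp, 3.65 for 1200 to 1500 bp, 5.24 for 1500 to 2000 bp and 3.80 above that. The median normal-score change at 24h was 0.12 in fold, beside 0.01 over all regions, and −0.01 in pileup. In the top decile of mean pileup the median change in fold was 0.149 in broad regions and 0.148 in the others. Depth was lowest at 24h, and its part in the fold shift was not tested.

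**Figure D3:**
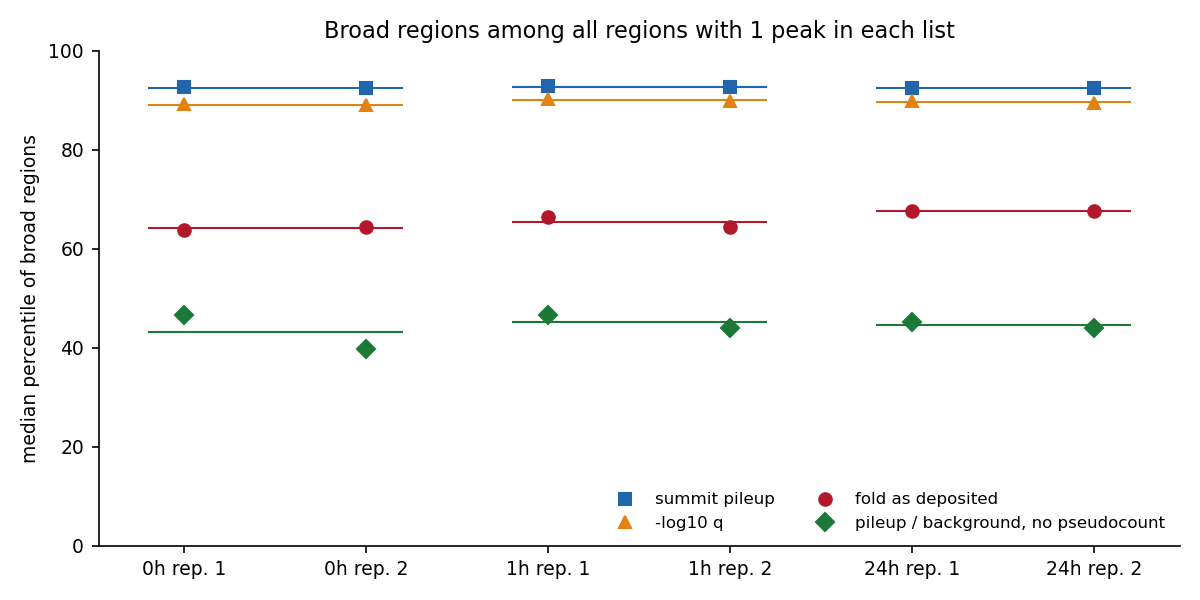
Median within-library percentile (0 to 100) of the 4578 broad regions among the 63045 regions with 1 peak in each list, for 4 values of the same peaks; points are libraries and lines the mean of the 2 libraries of a time. Fold as deposited has a mean of 64.1 at 0h and 67.6 at 24h, while summit pileup stays at 92.5 to 92.8.

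Relative to the median of their library, widths of single broad regions changed little with time. Each width was divided by a median width of its library. This was the median of the broad set for broad regions, and that of all regions for the shares of all regions. A shift of the whole set, such as the lower widths at 24h, was therefore not counted. A change was counted at a ratio of time means of at least 1.2 with no overlap between the replicates of the 2 times. At 24h against 0h, 15 broad regions were wider and 36 narrower (14.6% and 12.6% of all regions). At 1h against 0h 14 were wider and 6 narrower (12.2% and 10.4% of all regions), and at 24h against 1h 11 were wider and 28 narrower (13.2% and 11.6%). The rule requires 1000 bp in each library, so it limits how far a broad region can narrow, and these shares are no test. The clearest narrowing was in chr4:42657910-42659794, with 1881 and 1875 bp at 0h, then 1792 and 1729 bp at 1h, then 1305 and 1005 bp at 24h, while its pileup percentile stayed between 91.5 and 96.9. The opposite case, chr17:30263537-30264968, had 1067 and 1026 bp, then 1200 and 1262 bp, then 1382 and 1406 bp, so that neither region's times overlapped.

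In a small number of broad regions the called summit lay elsewhere at another time. Replicates of 1 time already differed by at least 300 bp in 5.02% to 7.30% of broad regions. How many moves such differences would give with 2 libraries per time was not tested. A move was counted where the replicates of each time had summits within 100 bp of each other and the time means lay at least 300 bp apart, limits set after the data were seen. At 1h against 0h, 45 of 2925 broad regions with such steady replicates moved (1.54%, beside 0.392% of all regions). At 24h against 0h it was 45 of 3057 (1.47%, beside 0.414%), and at 24h against 1h 50 of 3071 (1.63%, beside 0.247%). Peaks outside the broad set are shorter by the rule, so the shares are not a comparison of like with like.

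In 11 regions the limit was met both at 1h and at 24h against the 0h libraries that these comparisons share. The summit of chr12:14922762-14924339 lay 1300 and 1324 bp from the region's start at 0h, then 396 and 384 bp at 1h, then 402 and 365 bp at 24h. Its fold percentile was between 48.1 and 56.3, lowest in the 0h libraries, and its pileup percentile between 86.9 and 91.6. In chr5:180633640-180635002 the summit went from 212 and 228 bp to 1057 and 1016 bp and then 1136 and 1125 bp, with folds of 5.30 to 5.89 in all 6 libraries.

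In 3 of the 11 regions the pileup at the summit was lower as well. Position and pileup are read at the same summit of the same peak, so they are not independent observations. The summit of chr8:30504942-30506492 lay at 441 and 486 bp at 0h, then 1123 and 1113 bp at 1h, then 1170 and 1151 bp at 24h, and its pileup was 71 and 58, then 45 and 49, then 34 and 28. For chr4:89435646-89437089, named above, the summit lay at 651 and 582 bp at 0h, then 1149 and 1137 bp at 1h, then 1279 and 1307 bp at 24h. In chr2:38365192-38366530 the positions were 1105 and 1165 bp, then 625 and 623 bp, then 504 and 577 bp, with pileups of 80 and 51, then 52 and 52, then 36 and 33. The pileup rank of these 3 was called lower at 24h by limma with the prior along the pileup (adjusted p = 0.00045, 4.29e-05 and 0.0030), and that of the other 8 was not (adjusted p of 0.42 to 0.97).

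**Figure D4:**
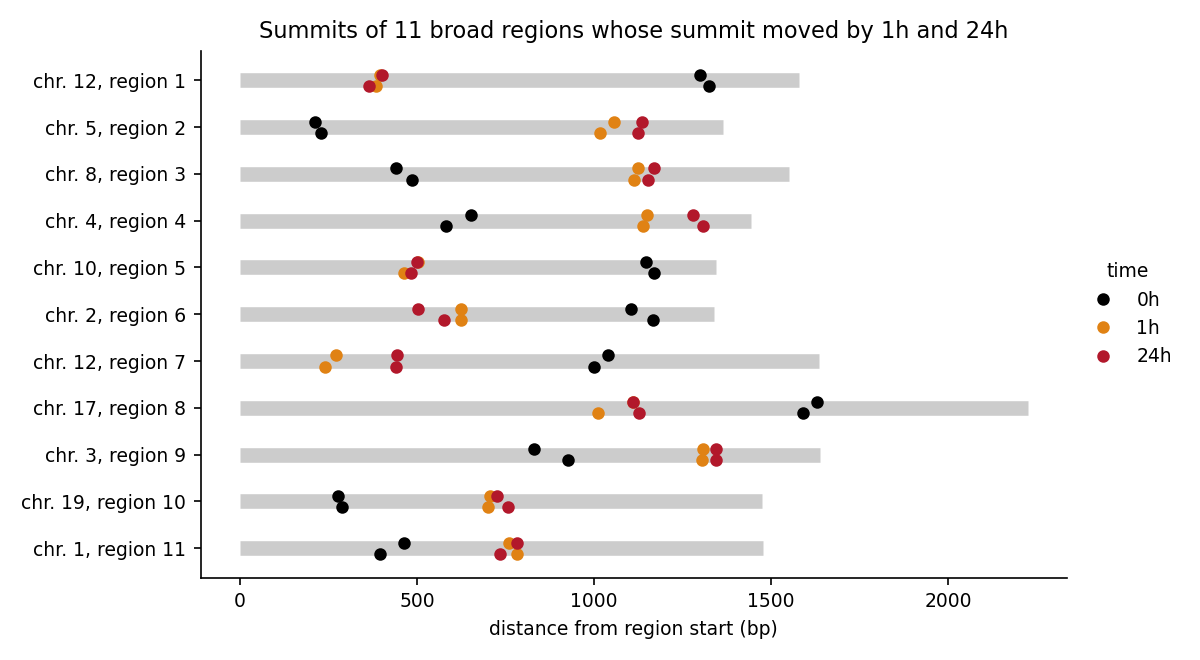
Summit position in bp from the start of the region in the 6 libraries (0h black, 1h orange, 24h red; the replicates of a time are drawn slightly above and below the bar) for the 11 broad regions whose summit moved by at least 300 bp from 0h to both later times. Grey bars span the merged region. In the region on chromosome 12 listed first, the summit goes from 1300 and 1324 bp at 0h to 365 to 402 bp at 24h.

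Broad regions were not spread evenly over chromosomes. They made up 9.85% of the single-peak regions on chromosome 19 (95% Wilson interval 8.72 to 11.1) and 9.09% on chromosome 17 (8.02 to 10.3), but 5.40% on chromosome 18 (4.37 to 6.67) and 5.84% on chromosome 21 (4.38 to 7.75). The intervals cover counting error only. The share followed the density of protein-coding genes (number per Mb up to the last region of the chromosome), taken from a gene table of build GRCh38.p14 and used only as a count per chromosome. Pearson's r over the 23 chromosomes was 0.83 and Spearman's rho 0.78, and r was 0.68 without chromosomes 19 and 17, which have the highest gene density. Chromosomes share the 6 libraries, and neither base composition nor the copy number of chromosomes was tested. Per Mb, broad regions ranged from 0.663 on X to 3.94 on chromosome 19.

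**Figure D5:**
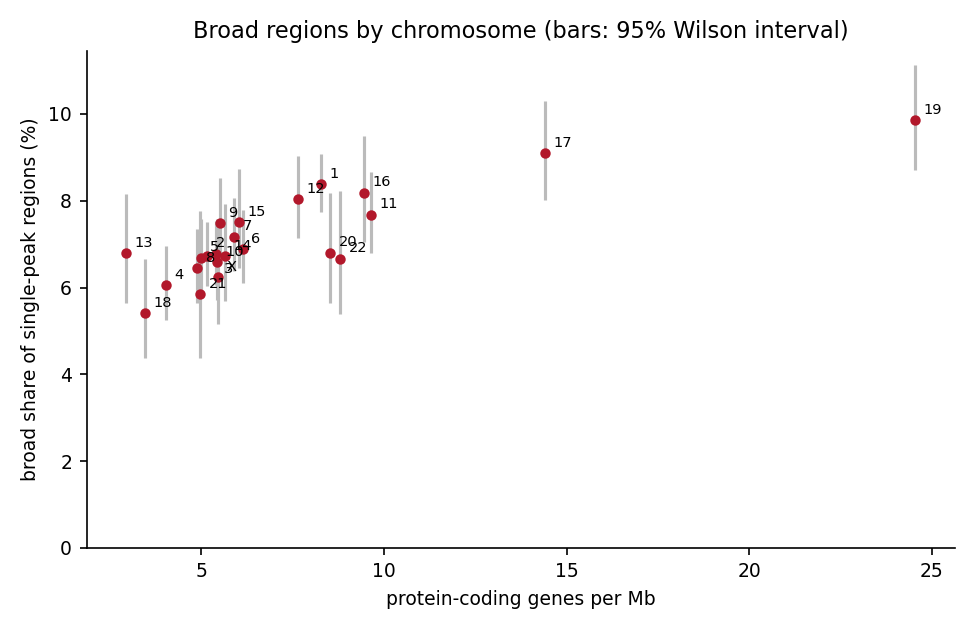
Broad share (%) of the regions with 1 peak in each list against protein-coding genes per Mb for 23 chromosomes; bars are 95% Wilson intervals. Chromosomes 19 and 17 lie highest on both axes, at 9.85% and 9.09%; chromosome 18 is lowest at 5.40%.

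Broad regions stood further from their nearest neighbour of any kind, with a median gap of 7050 bp against 4632 bp for the other regions. Gaps were measured between region edges, and a wider peak covers ground where a neighbour could lie. The difference may therefore follow in part from the rule. The gap to the next broad region had a median of 111632 bp and quartiles of 43702 and 273597 bp, and 217 broad regions (4.74%) had another within 10 kb. Some parts of the genome still collected them. Of 2885 windows of 1 Mb, 253 held 5 or more broad regions, and these windows together held 1659 of the 4578 (36.2%). These windows were picked by that count, and their share of all single-peak regions was not worked out. Whether broad regions cluster more than other regions was therefore not tested. The fullest lay on chromosome 16 between 30 and 31 Mb, where 17 of 55 single-peak regions were broad, followed by chromosome 12 between 56 and 57 Mb, with 15 of 56.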

How the data were processed

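The submitters' processing notes list Bowtie2, FastQC, MACS2 and fastp, and the build hg19. Not given in the sources used here are versions, read shifting, duplicate removal, whether a control library was used and most parameters. The peak names contain SPMR, the name of a MACS2 option, and its effect on the deposited fold is not stated. The deposited peak lists, 1 per library and not pooled, give a score, a fold (a ratio of summit pileup to local background), and −log10 p and −log10 q values for each peak. The lowest deposited −log10 q was between 1.30 and 1.32, so weaker peaks are not listed. Where no control is used, MACS2 takes the background from the same library around the summit, so a wide peak can raise its own background.

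Folds of different lists are not on 1 scale and were ranked within lists over the 63045 regions with a single peak in all 6. Pileup and background were recovered from fold and −log10 p, assuming a pseudocount of 1 and a Poisson p; 100.0% of peaks matched within 0.001. The commonest background over the shortest peak gave the relative depth. Read counts were not analysed here, so no interval is given for single folds. Ranks were tested with limma 3.58.1 in R 4.3.3 over all 6 libraries with time as the only factor. The test was also run on simulated data with known changes, where it missed the smallest ones, also in broad regions. Descriptions used Python 3.11.15, pandas 2.3.3 and SciPy 1.17.1.

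The members, lists and limits were chosen with earlier results of these data known. Regions named are the 10 widest, those nearest the width limit, the 5 highest and lowest by mean fold percentile, and, where none passed, the 3 with the lowest p per comparison and direction; those with a changed width or pileup or a moved summit were chosen after their values were seen. Gene names, marker lists, promoters and motifs had been planned but need hg19 annotation or sequence, which was not used here. Alternatives are given in the closing section.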

Additional observations from a re-analysis of the deposited data

Results flagged for a closer look

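On the Y chromosome, which no comparison used, 8 regions met the same rule of a single peak of at least 1000 bp in each of the 6 libraries. On mitochondrial DNA, also not used, 1 region did.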

How the results depend on the processing

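The number of broad regions, 4578, was 7931 with a limit of 800 bp, 543 with 1500 bp and 6869 where several peaks were summed, and stayed within 1.5 times otherwise, including 4647 to 5112 with 1 library left out.

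Calls per comparison and direction were 0 in 75 of 78 planned recounts. At 1h against 0h and at 24h against 1h, the planned recounts over all 6 libraries called 0 of all regions too. Those zeros say nothing about broad regions in particular. The exceptions at 24h against 0h were 1 higher and 5 lower of 7931 members of at least 800 bp (2.44% and 2.62% of all regions). Where the highest −log10 q was at least 10, 2 broad regions were higher, beside 1773 of all 57842 regions. Among alternatives added after the data were seen, ranking the pileup gave 3 higher and 3 lower at 24h against 0h. The prior along the pileup gave 71 and 1 there and 1 higher at 1h against 0h. Both together gave 32 and 36, then 10 and 9 at 1h against 0h, and 3 lower at 24h against 1h. The prior with no pseudocount gave 4 and 1, and 1 higher at 1h against 0h. The cause was not tested. Across regions, the rank deviations of same-numbered libraries had a correlation of 0.047, 0.048 and 0.016. Ranks within libraries drop any effect on a whole library, so this cannot tell whether same-numbered libraries share a culture or batch. With the replicate block, 0 broad regions were called in each comparison and direction, beside 1289 higher and 1426 lower of all regions at 24h against 0h. Of 270 values of the named regions under alternatives, 0 reversed and 16 passed the threshold, mostly under alternatives added after the data were seen. These regions were chosen for a small p in the same data, and several alternatives leave the change itself unaltered. The lack of reversals is therefore no support.

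The median percentile at 0h, 1h and 24h was 89.1, 90.1 and 89.6 for −log10 q, 92.5, 92.8 and 92.5 for pileup, 43.2, 45.2 and 44.6 without the pseudocount, 68.5, 70.7 and 71.5 for 800 bp, and 46.6, 46.7 and 50.8 for 1500 bp.

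Moved summits, in the order 1h from 0h, 24h from 0h and 24h from 1h, numbered 25, 21 and 23 with 500 bp, 79 in the last with 200 bp, and 27 and 23 in the first pair with replicates within 50 bp. Leaving out 1 library drops the check between its replicates, and gave 102 to 166, 117 to 160 and 128 to 147. Depth sets which weak peaks are listed at all; no read counts were analysed here.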
